A study of Mus musculus with 12 samples.

Results

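H3K4me3 regions lying deep inside protein-coding genes were examined in mouse embryonic fibroblasts, connective tissue cells cultured from embryos, that were either Fbxw7 knockout (fbxw7 KO) or wild type (WT). Cut & Run, in which an antibody directs a nuclease to chromatin and the released DNA is sequenced, was carried out with antibodies against H3K4me3, H3K4me1 and MLL4, with 2 libraries per antibody and genotype (12 libraries in all). Fbxw7 encodes an F-box protein that picks the proteins an SCF-type ubiquitin ligase marks for degradation. All cells were grown in DMEM with fetal bovine serum. Neither the deleted part of Fbxw7 nor the origin of the paired libraries, from 1 culture or several, is given in the labels. The spread between libraries, and every p-value resting on it, may therefore be technical. Peaks of the 4 H3K4me3 libraries on chromosomes 1 to 19 were merged wherever they shared 1 bp. A merged region was kept when it lay wholly inside the span of a protein-coding gene and more than 2 kb from either end of every protein-coding gene. This gave 3026 gene-body regions of 17250 merged regions (17.5%). The comparison classes were 11882 gene-end regions, within 2 kb of a protein-coding gene end, and 2342 remaining regions. Because a region needed a peak in only 1 library, the longer WT peak lists contributed more regions than the KO lists.

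H3K4me3 is deposited by SET1 and MLL family methyltransferases and is typical of active promoters, above all those rich in CpG dinucleotides. H3K4me1, deposited largely by MLL3 and MLL4, is typical of enhancers and of the flanks of promoters. H3K4me3 inside a gene is known from alternative promoters, from promoters of nested non-coding RNAs, and at lower levels from active enhancers.

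The H3K4me3 libraries held 5519477 and 5938102 filtered fragments in KO cells, and 11319701 and 6185767 in WT cells. The H3K4me1 libraries held 11604131 to 13627038 and the MLL4 libraries 4435103 to 5838305. Weaker sites pass the q threshold as depth or enrichment grows, and a site called without a peak is one that did not pass it. As a check of the labelled cell type, H3K4me3 lay within 1 kb of a gene end at 4 and 4 of 8 fibroblast marker genes in the KO libraries and at 7 and 7 in the WT libraries. The same counts were 2 and 4 of 30 neuronal genes in KO against 10 and 9 in WT, and 4 and 3 of 19 haematopoietic genes in KO against 8 and 7 in WT.

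Many of the gene-body regions coincided with alternative transcription starts of their host gene. RefSeq promoter windows (GRCm38.p6, the coordinates of mm10) were matched to the hosts of 2383 regions, and 976 of these (41.0%) lay within 1 kb of an annotated start. That start belonged to a host gene in each of the 976, which the distance of more than 2 kb from gene ends makes certain. The other 1407 had no listed start within 1 kb. Hosts of the remaining 643 regions were not matched, and their starts were not used here. The windows below, each 300 bases from 250 before to 50 after a start, are those of the first 3 such regions in the ranking of regions held by all 4 libraries (Fis1, Sema4c, Dgcr6) and in that of WT-only regions (Cbx5, Tmem14a, Mtfr2). They are shown to compare the CpG content of internal starts that kept and lacked KO peaks. Capitals mark CpG dinucleotides.
Fis1 (chr5:136961827-136962126, plus strand): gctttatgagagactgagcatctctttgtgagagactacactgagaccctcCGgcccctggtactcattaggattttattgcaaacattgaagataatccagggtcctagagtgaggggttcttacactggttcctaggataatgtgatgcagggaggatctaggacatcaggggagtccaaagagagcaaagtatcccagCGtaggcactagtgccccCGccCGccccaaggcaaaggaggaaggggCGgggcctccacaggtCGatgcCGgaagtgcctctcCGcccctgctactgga
Sema4c (chr1:36557508-36557807, minus strand): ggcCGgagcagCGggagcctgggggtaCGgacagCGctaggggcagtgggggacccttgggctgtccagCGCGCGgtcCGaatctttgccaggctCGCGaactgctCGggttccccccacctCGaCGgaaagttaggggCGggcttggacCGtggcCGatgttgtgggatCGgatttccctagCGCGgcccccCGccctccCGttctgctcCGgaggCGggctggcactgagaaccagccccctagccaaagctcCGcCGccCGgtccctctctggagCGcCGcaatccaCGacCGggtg
Dgcr6 (chr16:18066153-18066452, plus strand): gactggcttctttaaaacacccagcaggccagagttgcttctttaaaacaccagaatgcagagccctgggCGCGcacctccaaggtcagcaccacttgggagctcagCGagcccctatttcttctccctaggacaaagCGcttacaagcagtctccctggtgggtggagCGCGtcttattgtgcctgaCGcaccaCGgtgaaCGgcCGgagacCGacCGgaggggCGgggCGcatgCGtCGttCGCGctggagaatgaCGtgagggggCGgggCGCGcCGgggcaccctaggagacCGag
Cbx5 (chr15:103215303-103215602, minus strand): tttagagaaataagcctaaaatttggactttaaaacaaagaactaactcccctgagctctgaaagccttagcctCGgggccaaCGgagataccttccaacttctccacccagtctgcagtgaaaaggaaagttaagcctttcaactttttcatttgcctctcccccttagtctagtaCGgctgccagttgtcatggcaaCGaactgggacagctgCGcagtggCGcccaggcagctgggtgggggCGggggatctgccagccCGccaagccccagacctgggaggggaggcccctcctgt
Tmem14a (chr1:21218325-21218624, plus strand): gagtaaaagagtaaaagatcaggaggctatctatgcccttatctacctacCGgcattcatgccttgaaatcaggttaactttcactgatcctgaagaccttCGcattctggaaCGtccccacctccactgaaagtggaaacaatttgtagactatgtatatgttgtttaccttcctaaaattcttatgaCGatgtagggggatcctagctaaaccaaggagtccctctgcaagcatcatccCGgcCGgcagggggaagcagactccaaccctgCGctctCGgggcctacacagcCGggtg
Mtfr2 (chr10:20347569-20347868, plus strand): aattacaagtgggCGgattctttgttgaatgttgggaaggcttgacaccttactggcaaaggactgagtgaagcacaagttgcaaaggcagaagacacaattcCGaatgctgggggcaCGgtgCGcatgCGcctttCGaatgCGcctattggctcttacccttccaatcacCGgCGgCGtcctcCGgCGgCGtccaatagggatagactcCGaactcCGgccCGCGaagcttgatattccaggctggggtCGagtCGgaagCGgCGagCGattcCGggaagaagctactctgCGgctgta

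The Sema4c and Dgcr6 windows held 30 and 24 CpGs, and that of Fis1 held 8. Those of Cbx5, Tmem14a and Mtfr2 held 8, 9 and 24, so the ranges of the printed windows of both kinds overlap. Over all 2930 internal starts in the RefSeq table that lay more than 2 kb from protein-coding gene ends, CpG content went with the presence of H3K4me3. The median was 20 CpGs per window (quartiles 13 and 30) at the 586 starts near regions held by all 4 libraries. It was 16 (8 and 27) at 241 starts near WT-only regions and 4 (2 and 7) at 1718 starts with no H3K4me3 region within 1 kb. The observed over expected CpG ratio had medians of 0.727, 0.643 and 0.237 in these sets, against 0.586 over all 20084 protein-coding windows. The letters GGGCGG, searched on both strands, stood in 64.8%, 61.8% and 17.4% of the windows of these sets and in 47.0% of all windows. The letters TATAAA, also on both strands, stood in 5.80%, 4.15% and 15.1%, and in 12.7% of all windows. GGGCGG contains a CpG, so its share is not independent of the CpG count.

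Fewer of the gene-body regions had an H3K4me3 peak in KO than in WT cells. Of the 3026 regions, 912 (30.1%) and 1013 (33.5%) had a peak in the KO libraries, against 2871 (94.9%) and 2141 (70.8%) in the WT libraries. The groups did not overlap, and the WT libraries differed from each other more than the KO libraries did. The KO share averaged 31.8 ± 2.36% and the WT share 82.8 ± 17.1% (SD over 2 libraries each), a log2 ratio of −1.38. The exact two-sided permutation p was 0.333, the smallest that 2 against 2 libraries allow. No difference between genotypes in this design can therefore pass 0.05. The regions were also defined by peaks in these same libraries. WT peaks alone brought in 897 regions through both WT libraries, and 844 and 124 through a single WT library. KO peaks alone brought in 3 through both KO libraries, and 9 and 15 through a single KO library. The shares, their separation and this p thus do not test genotype apart from which lists supplied the regions. When each list was limited to its 10186 best peaks and regions were merged and classed anew, there were 1328 gene-body regions. Of these, 70.5% and 70.3% then had a peak in KO and 76.9% and 77.6% in WT (log2 −0.13, exact permutation p = 0.333).

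By pattern, 758 gene-body regions (25.05%) had a peak in all 4 libraries, against 47.5% of all merged regions. WT-only regions, with a peak in both WT libraries and neither KO library, numbered 897 (29.6%, against 21.3% of all merged regions). The WT-only share was 16.1% among gene-end regions and 37.0% among the 2342 remaining regions. KO-only regions numbered 3 (0.0991%, against 0.0522%). A further 358 had a peak in both WT libraries and 1 KO library, 18 had other combinations, and 992 had a peak in a single library. Of the 992, 844 came from WT replicate 1, the deepest library, 124 from WT replicate 2, 9 from KO replicate 1 and 15 from KO replicate 2. When WT replicate 2 was left out, 1755 regions were WT-only. Lists of equal length gave 76 WT-only regions and 37 KO-only ones.

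**Figure D1:**
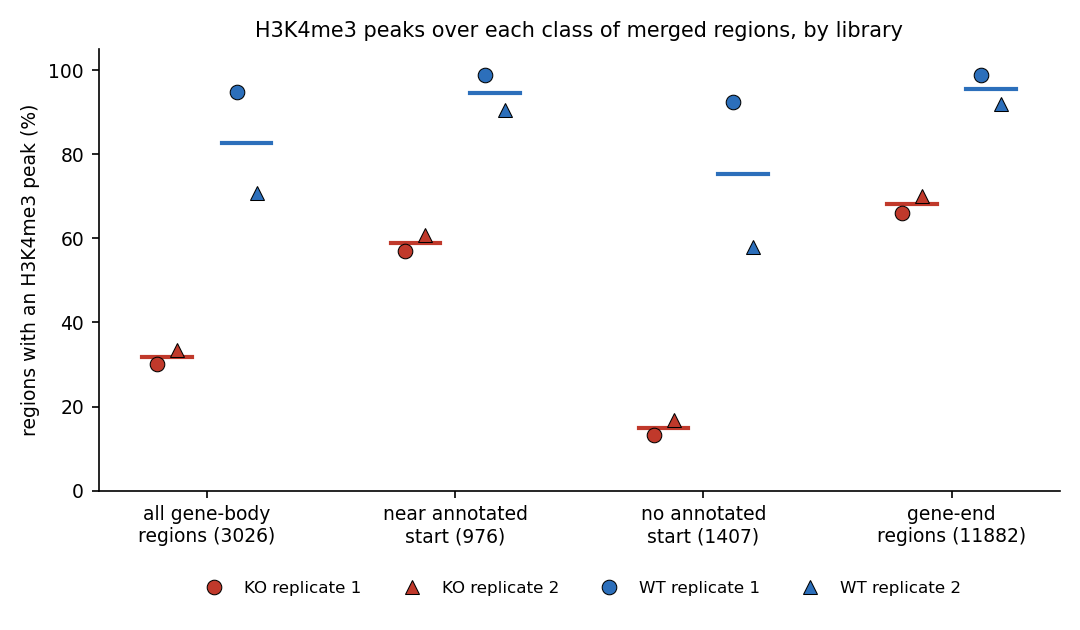
Share of merged H3K4me3 regions with a peak in each library (y axis, percent) for all gene-body regions, those near an annotated start, those with none, and gene-end regions. Points are libraries and bars are means of 2. The KO points of regions with no annotated start lie at 13.1% and 16.8%, the lowest of the classes drawn.

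The KO share was lower relative to WT at gene-body regions than at gene-end regions, of which 66.0% and 70.2% had a peak in KO and 99.0% and 92.0% in WT. It was lower still at the 2342 remaining regions, with a peak at 16.5% and 18.4% in KO and 92.7% and 63.1% in WT. A low KO share was thus not particular to gene bodies. The log2 ratio of the gene-body share to the gene-end share differed between KO and WT by −0.88 (exact permutation p = 0.333), and by −0.01 with lists of equal length (exact permutation p = 0.667). Within the gene bodies, regions near an annotated start had a peak in 57.1% and 60.9% of cases in KO and 98.8% and 90.5% in WT. Regions with no annotated start had one in 13.1% and 16.8% in KO and 92.5% and 58.0% in WT. The log2 ratio of these 2 shares was higher by 1.62 in KO than in WT (exact permutation p = 0.333). The difference turned to −0.09 with lists of equal length. These contrasts of shares also rest on regions defined by the lists being compared. A peak in all 4 libraries was present at 486 of 976 regions near a start (49.8%) and at 137 of 1407 with none (9.74%), and 216 (22.1%) and 482 (34.3%) were WT-only.

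Presence in KO went with the strength of a region in WT. Regions were grouped into 4 ranges by their percentile of −log10 q among the peaks of WT replicate 2, whose depth was close to that of the KO libraries; this is a description, without a test. In percentiles 0 to 25, the weakest range, KO peaks lay at 14.2% and 14.8% of regions near a start, at 4.54% and 6.71% of regions with none, and at 12.7% and 17.6% of gene-end regions. In percentiles 25 to 50 the shares were 53.8% and 56.5%, 27.9% and 39.9%, and 57.9% and 63.3%. In percentiles 50 to 75 they were, in the same order of classes, 80.1% and 88.5%, 75.6% and 82.6%, and 85.6% and 90.9%. In percentiles 75 to 100 they were 93.8% and 96.4%, 90.0% and 92.5%, and 95.6% and 97.8%. Regions with no annotated start thus had the lowest KO shares in each of the 4 ranges, by little in the strongest. They were also concentrated among weak regions, with 507 of 816 in the weakest range, against 169 of 883 regions near a start.

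**Figure D2:**
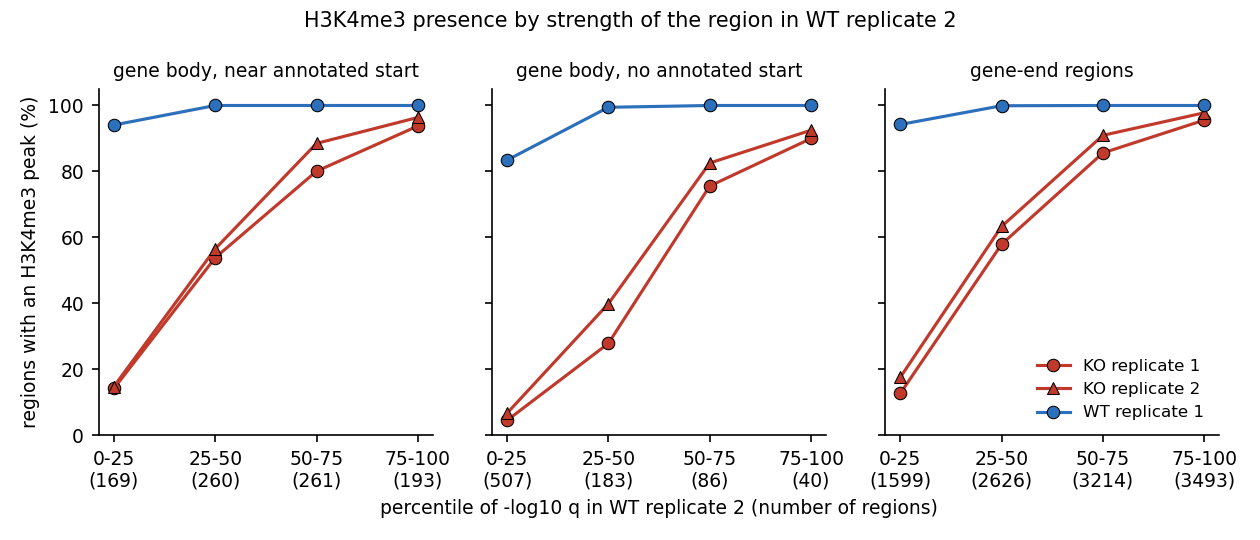
Share of regions with an H3K4me3 peak (y axis, percent) in KO replicates 1 and 2 and in WT replicate 1, by the percentile of −log10 q of the region in WT replicate 2 (x axis, number of regions in brackets). KO shares climb with WT strength in each class, to 90% or more in the strongest range.

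At the regions that every library held, the median H3K4me3 signal was lower in both KO libraries. The authors' pileup, the number of fragments over a point, was scaled to 1000000 filtered fragments (scaled pileup), and the highest value in each region was taken. Over the 758 regions held by all 4 libraries the median scaled pileup was 2.90 and 3.03 in KO, against 8.57 and 7.76 in WT. KO averaged 2.97 ± 0.0937 and WT 8.16 ± 0.572 (SD over 2 libraries each), a log2 ratio of −1.46 with an exact permutation p of 0.333. The groups did not overlap. The authors' fold over local background differed less at the same regions, with medians of 5.52 and 5.67 in KO and 7.46 and 6.93 in WT (log2 −0.36, exact permutation p = 0.333). Gene-end regions held by all 4 libraries had medians of 3.08 and 3.03 in KO and 8.92 and 8.08 in WT (log2 −1.48), close to the gene-body values in each library. The longest peak in each of these 758 regions was also shorter, with medians of 562 and 664 bp in KO and 1638.5 and 1350.5 bp in WT (log2 −1.29). Over all gene-body peaks of each library, which are different sets of regions, the median length was 497 and 528 bp in KO and 839 and 772.5 bp in WT (log2 −0.65, exact permutation p = 0.333). Merged regions near a start had a median length of 1357.5 bp, close to the 1432 bp of gene-end regions, and those with no start 587 bp. Duplicates were limited to 2 fragments per position in WT replicate 1 and to 1 in the other 3 libraries, and the part of this difference in the pileup was not tested.

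**Figure D3:**
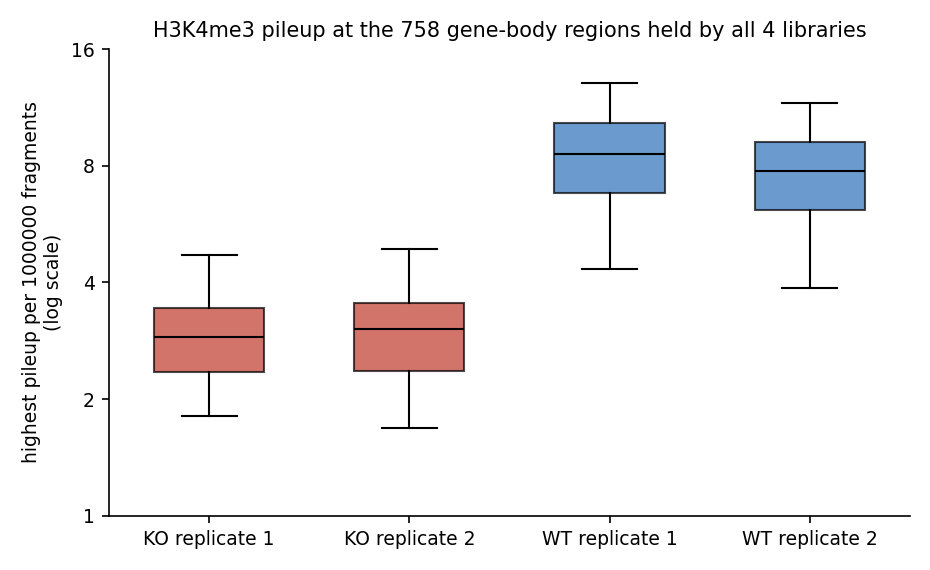
Highest H3K4me3 pileup per 1000000 filtered fragments (y axis, log scale) at the 758 gene-body regions held by all 4 libraries. Boxes span the quartiles with the median as a line, and whiskers run to the 5th and 95th percentiles of regions. KO medians are 2.90 and 3.03 and WT medians 8.57 and 7.76.

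H3K4me1 was common at gene-body H3K4me3 regions and covered a similar share of them in both genotypes. An H3K4me1 peak overlapped 37.2% and 31.9% of the 3026 regions in the KO libraries and 35.4% and 33.4% in the WT libraries, and the groups overlapped. KO averaged 34.6 ± 3.81% and WT 34.4 ± 1.36% (SD over 2 libraries each). KO minus WT was 0.149 percentage points (exact permutation p = 1), with a sign that turned in several alternative settings and a size below the spread between libraries. All 4 H3K4me1 libraries had a peak at 565 gene-body regions (18.7%, against 8.32% of all merged H3K4me3 regions), and none had one at 1448 (47.9%). H3K4me1 was WT-only at 69 regions (2.28%, against 1.9% of all merged regions) and KO-only at 66 (2.18%, against 2.2%), shares near the background.

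Gene-body regions carried H3K4me1 more often than gene-end regions in every library. At gene-end regions the shares were 17.2% and 13.6% in KO and 15.6% and 12.9% in WT. The mean difference of gene-body minus gene-end regions was 19.7 percentage points, in the same direction in 4 of 4 libraries (exact sign-flip permutation p = 0.125, the smallest that 4 libraries allow). It was 4.25 points with H3K4me3 lists of equal length and 9.75 points at an H3K4me3 −log10 q of at least 10. The shares were highest at regions with no annotated start, which carried H3K4me1 in 47.6% and 41.6% of cases in KO and 46.3% and 43.1% in WT. Regions near a start carried it in 19.5% and 15.4% in KO and 16.4% and 16.9% in WT, close to the shares at gene-end regions. The 643 regions whose hosts were not matched had 41.5% and 35.6% in KO and 40.1% and 37.5% in WT. The mean difference of near a start minus no start was −27.6 percentage points, again in 4 of 4 libraries (exact sign-flip permutation p = 0.125), although regions near a start were longer. With H3K4me3 lists of equal length it was −8.82 points. Merged regions outside genes and gene ends had 43.2% and 40.1% in KO and 43.2% and 39.7% in WT, close to the gene-body regions with no start.

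**Figure D4:**
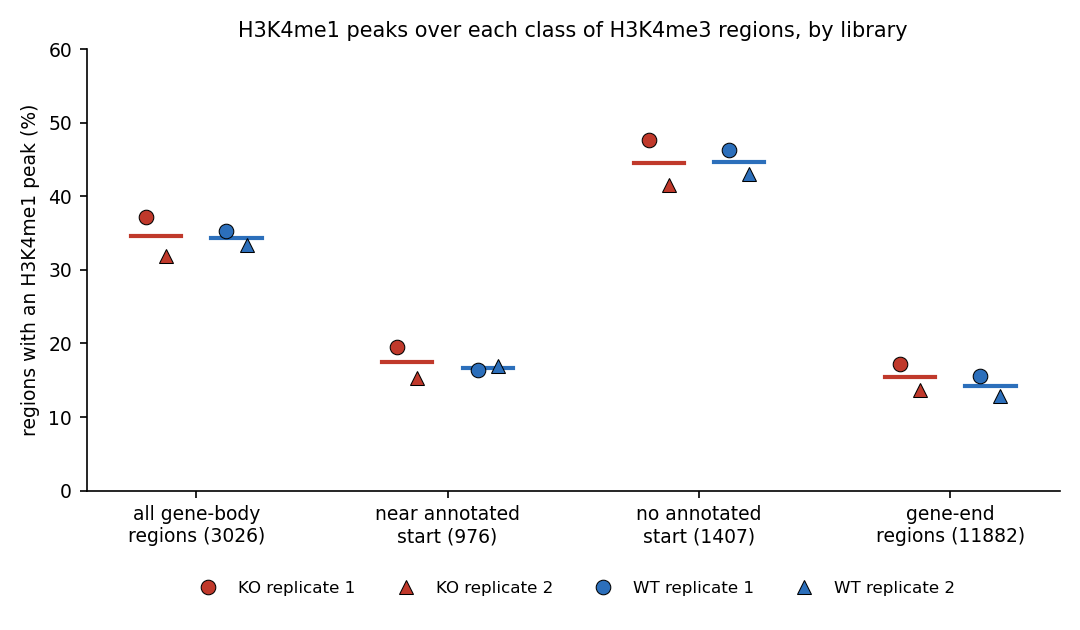
Share of merged H3K4me3 regions overlapped by an H3K4me1 peak (y axis, percent) in each H3K4me1 library, by class of region. Points are libraries and bars are means of 2. KO and WT points lie side by side within each class, and regions with no annotated start lie at 41.6% to 47.6%.

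Where KO lacked an H3K4me3 peak, the H3K4me1 shares of KO and WT also lay close together. Among the 897 regions WT-only for H3K4me3, 39.1% and 34.0% had H3K4me1 in KO and 37.3% and 34.0% in WT. The 758 regions that every H3K4me3 library held had H3K4me1 at 21.5% and 15.8% in KO and at 18.6% and 17.02% in WT. Within the WT-only set, the 482 regions with no start had 45.9% and 39.2% in KO and 45.2% and 40.0% in WT. The 216 near a start had 19.9% and 18.98% in KO and 16.2% and 15.7% in WT.

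The 3026 regions lay in 2209 host genes, 10.7% of 20661 autosomal protein-coding genes. Hosts had a median span of 70.4 kb, against 17.5 kb over all protein-coding genes. A single region was found in 1650 hosts, 2 in 368 and 3 or more in 191, and 372 regions (12.3%) had another gene-body region within 1 kb, so some neighbouring regions may be pieces of 1 domain. Where the host and its strand were clear, regions near a start were set toward the 5′ end. Of 967 such regions 42.1% lay in the first 25% of the gene and 5.89% in the last 25%, at a median of 11.6 kb from the outermost 5′ end. Of 1395 regions with no start, 32.2% lay in the first 25% and 17.8% in the last 25%, at a median of 32.6 kb. The outermost 5′ end of the host was itself often without H3K4me3. It had a peak within 1 kb for 22.0% and 24.1% of the KO-held regions near a start and for 40.1% and 36.3% of the WT-held ones. For regions with no start the shares were 34.4% and 40.9% in KO and 69.5% and 61.8% in WT, on different sets of regions in each library.

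**Figure D5:**
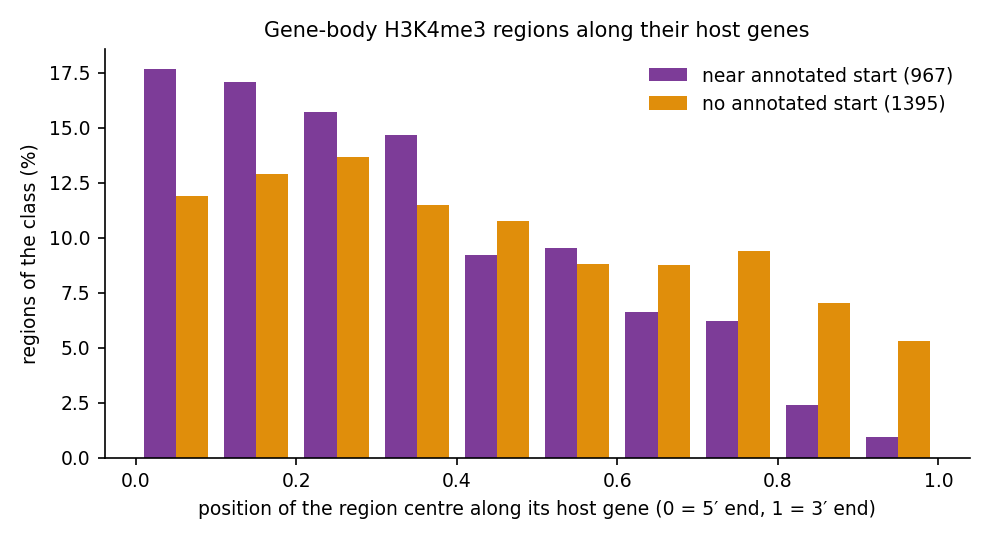
Position of the centre of each gene-body region along its host gene (x axis, 0 at the 5′ end and 1 at the 3′ end) as percent of the regions of its class (y axis). Of regions near an annotated start 42.1% lie in the first 25% of the gene, against 32.2% of regions with none.

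The best-ranked regions held by all 4 libraries mostly sat at internal starts. The same held for such regions of any rank, with 486 near a start and 137 with none where the host was matched. They were ranked by the lowest of their 4 percentiles of −log10 q, values that depend on the depth of each library. First came Fis1, a mitochondrial fission receptor gene (chromosome 5, 136961732 to 136962970, 9.08 kb from the outermost 5′ end), with a −log10 q of 16.1 and 19.3 in KO and 145.6 and 65.5 in WT. Its scaled pileup was 4.71 and 5.22 in KO, against 16.8 and 14.2 in WT, and it carried H3K4me1 in both WT libraries and neither KO library. The Sema4c region, in a semaphorin gene (chromosome 1, 36555645 to 36558214), reached a scaled pileup of 5.80 and 6.90 in KO, against 22.0 and 15.5 in WT. The Dgcr6 region (chromosome 16, 18066007 to 18067369) reached a scaled pileup of 4.17 and 5.22 in KO, against 17.1 and 9.54 in WT. Lower KO values were not particular to these 3 regions. Over all merged regions held by all 4 libraries the medians were 3.08 and 3.03 in KO, against 8.83 and 7.92 in WT. Eci2, a peroxisomal enoyl-CoA isomerase gene, Osbpl5, an oxysterol-binding protein family gene, and Ccdc174 also lay at internal starts. The Vsig10l region lay within 1 kb of the start of the non-coding gene Gm39000 and had no protein-coding start. Cln8, Gcfc2 and Dnajc18 completed the 10, and the Dnajc18 region also carried H3K4me1 in both WT libraries and neither KO library.

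Among the 10 best-ranked WT-only regions, 8 lay at an annotated start. Over all WT-only regions with a matched host, 216 lay near a start and 482 had none. The ranking takes the strongest regions, so the 8 do not describe the whole set. The first, in Arhgef15 (chromosome 11, 68939621 to 68940649), had a scaled pileup of 5.65 and 7.11 in the WT libraries. It carried H3K4me1 in 1 library of each genotype. The Cbx5 region lay at an internal start of the gene for heterochromatin protein HP1α (chromosome 15, 103214119 to 103215833) and had a scaled pileup of 7.42 and 6.79 in WT. The Tmem14a region (chromosome 1, 21218511 to 21219621) had a scaled pileup of 6.80 and 5.50 in WT and carried H3K4me1 in both KO libraries and neither WT library. The St7 region had H3K4me1 in all 4 libraries. Mtfr2, a mitochondrial fission regulator gene, 9530077C05Rik, Meig1, Fam171a1 and Rsad1 also had internal starts, and Ncs1, which encodes neuronal calcium sensor 1, had none there. The 3 KO-only regions lay in Srrm4, a neural splicing factor gene, Rnf10 and Ahnak2, none at an annotated start. Srrm4 (chromosome 5, 116445756 to 116446746) had a scaled pileup of 2.72 and 3.54 in KO, and Ahnak2 was near the threshold, with a −log10 q of 2.37 and 2.26.

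The hosts with most regions were long genes, the shortest of these 7 spanning 283 kb. Tcf4, a basic helix-loop-helix factor gene on chromosome 18, held 9, of which 1 and 1 had a peak in KO and 9 and 6 in WT. Pde4d, a cAMP phosphodiesterase gene with several promoters, held 8, none near an annotated start. A peak lay at 4 and 4 of them in KO and at 8 and 6 in WT. The 4 Pde4d regions in all libraries were 1740 to 2461 bp long, while the other 4 were 376 to 1041 bp. Ablim1, Foxp1, Frmd4a, Nfia and Zfp536 held 7 each. In Foxp1, a forkhead factor gene, 0 and 0 of the 7 had a peak in KO and 6 and 6 in WT. In Zfp536, a zinc finger gene, the counts were 0 and 0 in KO and 7 and 5 in WT. In Nfia, a nuclear factor I gene, they were 1 and 0 in KO and 6 and 6 in WT. In Ablim1, an actin-binding LIM protein gene, they were 2 and 0 in KO and 6 and 4 in WT, and 6 of its 7 regions carried H3K4me1 in each of the 4 libraries. In Frmd4a, a FERM domain scaffold gene, they were 3 and 3 in KO and 7 and 7 in WT.

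Of 46 genes listed for known internal promoters, 32 (69.6%) hosted 112 regions, against 10.7% of all protein-coding genes that were hosts. The listed genes had a median span of 202 kb. Of the 112 regions, 26 were in all 4 libraries, 41 (36.6%) WT-only and 0 KO-only. The shares in all 4 libraries and WT-only were 25.05% and 29.6% of gene-body regions and 47.5% and 21.3% of all merged regions. An annotated start lay near 22 of the 112, and the starts of some hosts, such as Tcf4, were not used. Ank3, an ankyrin gene, held 6, with a peak at 0 and 0 in KO and 6 and 4 in WT. None of the 6 lay near an annotated start, and H3K4me1 lay at 5 and 5 in KO and 5 and 3 in WT. Gnas, an imprinted gene for a stimulatory G protein subunit, named after its values were seen, held 5, of which 1 and 2 had a peak in KO and 4 and 4 in WT, and none carried H3K4me1. Among 43 mesenchymal transcription factor genes, with a median span of 122 kb, 26 hosted 76 regions, 12 of them near an annotated start. Of the 76, 6 were in all 4 libraries and 35 (46.1%) WT-only, against 21.3% of all merged regions and 29.6% of gene-body regions. The WT-only share was 34.3% of gene-body regions with no annotated start and 22.1% of those near one. Peaks lay at 10 and 9 of these 76 in KO and at 71 and 53 in WT. Runx2, the osteoblast factor gene, held 6 and had a peak at 1 and 2 in KO and 5 and 4 in WT. Tbx5, a limb and heart T-box gene also named after its values were seen, held 3, each of them WT-only. The share of WT-only regions in this list was not tested, and the list shares Tcf4, Foxp1, Runx1 and Runx2 with the internal promoter list.

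The counts of the remaining lists stand against 10.7% of all protein-coding genes that were hosts, 29.6% of gene-body regions and 21.3% of all merged regions that were WT-only, and 25.05% and 47.5% that were in all 4 libraries. Nothing particular to a list is read from them. Among 44 autosomal actin cytoskeleton and adhesion genes, with a median span of 129 kb, 23 (52.3%) hosted 52 regions. Of these, 13 were in all 4 libraries and 15 (28.8%) WT-only, close to the share of all gene-body regions. This list shares Tns1, Macf1, Dst, Plec and further hosts with the internal promoter list, so many of its regions were also counted there. Tns1, a tensin gene of focal adhesions, held 6, with a peak at 2 and 2 in KO and 6 and 5 in WT, and Arhgap26 and Macf1, a spectraplakin gene, held 5 each. Of 43 extracellular matrix genes, 10 (23.3%) hosted 14 regions, with 1 in all 4 libraries and 3 (21.4%) WT-only. Col12a1, a fibril-associated collagen gene, held 2, 1 of each kind, and Col4a2, a basement membrane collagen gene, held 2 with a peak in WT replicate 1 and in no other library. H3K4me1 lay at 9 and 8 of the 14 extracellular matrix regions in KO and at 10 and 7 in WT. Fbxw7 substrate genes hosted 10 regions in 8 of 22 genes (36.4%), 4 in all 4 libraries and 4 (40%) WT-only. Srebf1, the sterol regulatory factor gene, held 2 at internal starts, 1 of each kind, and Hif1a held 1 of each kind. The H3K4 methylation machinery hosted 7 regions in 6 of 20 genes. Of these, 5 were in all 4 libraries, 1 each in Kdm6b, Ash2l, Dpy30, Setd1b and Kmt2d, the gene of MLL4, the last 2 named after their values were seen. The other 2 were WT-only, in Kdm6b, an H3K27 demethylase gene, and Kmt2c, the gene of MLL3. Neuronal genes, with a median span of 705 kb, hosted 29 regions in 16 of 30 genes, 2 in all 4 libraries and 6 WT-only, Dlg2 holding 4 and Cacna1a 3. Haematopoietic genes hosted 10 in 5 of 19, 0 in all 4 libraries and 3 WT-only, with 5 of the 10 in Bcl11b and 2 in Fyb.

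Of the gene-body regions 19 lay within 1 kb of a microRNA hairpin. The loci described here were chosen after their values were seen. Each of the 3 loci of the miR-199 family, microRNAs known from mesenchymal tissue that lie within dynamin genes, carried such regions, and the mature sequences listed here fell inside them. They are shown because loci on 3 chromosomes give 3p microRNAs with the same seed, and capitals mark bases 2 to 8 (RefSeq, GRCm38.p6).
miR-199a-5p (Mir199a-1 and Mir199a-2): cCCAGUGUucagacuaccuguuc
miR-199a-3p (Mir199a-1 and Mir199a-2): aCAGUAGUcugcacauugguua
miR-199b-3p (Mir199b): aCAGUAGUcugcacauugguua

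The Mir199a-2 region in Dnm3 (chromosome 1, 162217703 to 162218686), within 1 kb of the start of the non-coding host gene Dnm3os, had no peak in KO replicate 1 and a −log10 q of 4.55 in KO replicate 2, against 24.2 and 11.1 in WT. The Mir199b region in Dnm1 (chromosome 2, 32317826 to 32318889) was WT-only, with a −log10 q of 24.6 and 5.81, and carried H3K4me1 in KO replicate 1 and in both WT libraries. The Mir199a-1 region in Dnm2 (chromosome 9, 21495833 to 21496940) was WT-only, with a −log10 q of 8.56 and 8.67. A further region lay beside the Mir199a-2 locus (WT-only) and another beside the Mir199a-1 locus (in WT replicate 1). The region at Mirlet7e and Mir125a in Spaca6 (chromosome 17, 17829061 to 17830492) was in all 4 libraries, with 6.35 and 10.4 in KO and 47.3 and 35.6 in WT. The miR-199 regions therefore passed the threshold in at most 1 KO library, while that of let-7e and miR-125a passed in both. Most gene-body regions were like the former, as 25.05% were in all 4 libraries, against 47.5% of all merged regions. Regions at other hairpins also included both WT-only ones and ones in all 4 libraries, so nothing particular to these loci is read from the contrast.

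The MLL4 lists were short, with 43 and 36 peaks on chromosomes 1 to 19 in KO and 54 and 61 in WT. Over all 17250 merged regions MLL4 peaks overlapped 40 and 31 in KO and 46 and 57 in WT. Of the 3026 gene-body regions they overlapped 14, with 13 and 7 in the KO libraries and 8 and 9 in the WT libraries. These sites are described because of their overlap and were chosen after it was seen. None of the 13 with a matched host lay near an annotated start. At 6 of the 14, in Atp8b5, Usp24, Csmd1, Frem3, Slc22a22 and Zc3h7a, all 4 MLL4 libraries had a peak. Those in Atp8b5, Frem3, Slc22a22 and Zc3h7a also had H3K4me1 and H3K4me3 in all 4 libraries of each mark, so peaks of all 3 antibodies coincided there. At Slc22a22, an organic anion transporter family gene, the scaled H3K4me3 pileup was 7.43 and 7.92 in KO and 2.65 and 4.53 in WT. At Frem3 it was 4.35 and 4.88 in KO and 1.68 and 3.07 in WT, and at Usp24, a deubiquitinase gene, 2.54 and 3.20 in KO and 1.502 and 2.42 in WT. Medians over the 758 gene-body regions held by all 4 libraries were 2.90 and 3.03 in KO and 8.57 and 7.76 in WT. The share of regions with higher values in KO was not counted, so nothing particular to these sites is read from them. At Zc3h7a the values were 4.53 and 4.04 in KO and 5.74 and 5.50 in WT, and at Atp8b5 the groups overlapped, with 3.44 and 4.38 in KO and 2.83 and 4.69 in WT.

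By chromosome, named after the values were seen, the H3K4me1 shares of KO lay farthest above WT on chromosome 10 and farthest below on chromosome 19. Gene-body regions on chromosome 10 had H3K4me1 at 51.4% and 43.3% in KO and at 41.4% and 36.7% in WT, and those on chromosome 19 at 39.3% and 36.0% in KO and at 44.9% and 47.2% in WT. Outside chromosome 10 the shares were 36.2% and 31.0% in KO and 34.9% and 33.2% in WT. H3K4me3 peaks lay at 24.3% and 25.2% of the 210 regions on chromosome 10 in KO and at 92.4% and 64.8% in WT. At the 2 kb boundary, the 183 regions 2 to 2.5 kb from a gene end had H3K4me3 at 39.9% and 43.2% in KO and 96.2% and 77.6% in WT. The 251 regions inside genes at 1.5 to 2 kb, which were not kept, had it at 38.2% and 37.8% in KO and 95.2% and 75.7% in WT.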

How the data were processed

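The submitters' processing notes list mm10 as build and, without saying what each did, SAMtools 1.5, HOMER 4.10, deepTools, MACS2, bedtools and Bowtie2. MACS2 2.1.0.20150731 was run by the authors on paired-end fragments of single libraries, with no control and a q cutoff of 0.01, per the file headers. The deposited lists hold, for each peak, its summit pileup (a signal without depth scaling), −log10 values of p and of q, and a fold ratio to the local background. Fold ratios are given only as medians.

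From these lists, on chromosomes 1 to 19, peaks were merged, classed against RefSeq gene spans and scored for a peak of each library sharing at least 1 bp, with Python 3.11.15, NumPy 2.4.6 and pandas 2.3.3. Pileups were scaled to 1000000 filtered fragments, a total taken from the headers. RefSeq starts on chromosome 18, which holds 135 of the regions, were not used here. Exact permutation tests used 6 assignments of 4 libraries, and sign-flip tests 16. Code was tested on simulated intervals. The regions, lists and tests were chosen with earlier results of these data known. Named regions are the 10 best-ranked held by all 4 libraries, the 10 best-ranked WT-only, the KO-only ones, and the hosts with most regions, ties included; per gene list, 2 to 4 genes, by number of regions and then alphabetically; others are named as chosen after their values were seen. The annotated-start split, MLL4 sites and microRNA loci were chosen after the data were seen.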

Additional observations from a re-analysis of the deposited data

How the results depend on the processing

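Presence, peak length and pileup of gene-body regions kept the sign of KO against WT in every alternative in which they were computed, with log2 KO/WT of −3.51 to −0.13, −1.37 to −0.58 and −1.50 to −1.25. The lowest and highest values without 1 library were −1.58 and −1.22, −0.71 and −0.59, and −1.52 and −1.39. The H3K4me1 share difference had no stable sign. It was −0.414 points with H3K4me3 lists of equal length, −0.462 without chromosome 10, −0.644 at an H3K4me1 −log10 q of at least 5, −1.12 with H3K4me1 within 1 kb (added after seeing the data), and −2.54 to 2.84 without 1 library. With lists of equal length the WT-only count was 76 and the KO-only count 37, and the presence contrast of regions near a start turned to −0.0904. KO-only regions numbered 0 at an H3K4me3 −log10 q of at least 10. Leaving out 1 library gave 1032 to 1755 WT-only and 4 to 18 KO-only regions, the genotype concerned then being scored from a single library. The cause of the other shifts was not tested. Same-numbered libraries share only a number in the labels, and their deviations from the group means barely correlated over regions (0.0308 for H3K4me3, 0.0191 for H3K4me1). With the replicate number as a block the values were −1.37 (presence), −0.88 (relative to gene ends), −0.65 (length), −1.46 (pileup), 0.149 points (H3K4me1) and 1.62 (near a start), with exact sign-flip p of 0.5, or 1 for H3K4me1, where 2 pairs allow no less than 0.5, and no call changed. Depth and enrichment differ between the libraries, so absence of a peak is a statement about the threshold.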

Other observations

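Starts of long non-coding RNA genes lay within 1 kb of 197 gene-body regions, 68 of which had a matched host and no protein-coding start nearby. Among them was a Pde4d region beside the start of Gm32703 (chromosome 13, 109440238 to 109441977). It was held by all 4 libraries, with a scaled pileup of 2.72 and 2.69 in KO and 7.69 and 8.41 in WT, and carried H3K4me1 in WT replicate 1 only.

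Of all 2930 internal protein-coding starts in the RefSeq table, 24.0% and 25.6% had an H3K4me3 peak within 1 kb in the KO libraries and 41.1% and 38.6% in the WT libraries. Most annotated internal starts were thus without a peak in each of the 4 libraries.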
